A study of Mus musculus with 11 samples.

Results

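The genes that share mouse chromosome 15 with the endogenous Myc gene were followed as RNA in 11 lymphomas, through 731 array probes. A probe is a DNA oligonucleotide printed on a glass slide, and its brightness reports the amount of labelled RNA bound to it. The probes were chosen as those placed on chromosome 15 whose signal lay well above background on all 11 arrays, with the probes of Myc and Ly6k left out. They were 731 of the 1373 chromosome 15 probes used, and of 39383 probes used in all. The other chromosome 15 probes were bright enough on 10 arrays for 50 of them, on 1 to 9 arrays for 298 and on 0 arrays for 292. Since detection on every array chose the members, a gene silent in 1 tumour could not be among them. The dimmest 10% of the members had mean signals from -4.98 to -3.48 log2 units, and the probes that missed the rule by 1 array ranged from -5.56 to 0.78. Here and below a signal is the log2 of the processed intensity minus the array's 75th percentile, so 0 is the 75th percentile of that array and 1 unit is a ratio of 2. The members carried 600 gene names, 112 of them on more than 1 probe, so members are not independent genes. A current symbol of the RefSeq annotation was found for 593 of the 731 members, and that annotation puts the genes of 5 members on another chromosome.

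All tumours were lymph node lymphomas of Black 6 mice with the genotype c-myc-3'RR/p53+/-. They carried a c-myc transgene driven by the 3' regulatory region (3'RR) of the immunoglobulin heavy chain locus, an enhancer active in B cells, together with 1 inactive p53 allele. The groups were 4 plasma cell lymphomas (PCL1 to PCL4), 3 mantle cell lymphomas (MCL1 to MCL3) and 4 Burkitt lymphomas (BL1 to BL4), named after the human diseases. Every group carried the transgene and the p53 allele, no untreated or normal lymph node sample was analysed here, and ages are not given in the sources used here. Whether each tumour was taken from its own mouse is not stated in the labels, so the p-values reflect the spread among these arrays, part of which may be technical. Each lymphoma type lay on 1 slide, so slide and type cannot be told apart. RNA integrity numbers were 8 to 10, with the 8 in MCL2, and the share of spots well above background ranged from 55.5% to 62.8%. All 8 genes of a B cell marker list were detected on all 11 arrays, and so were the 6 genes of a plasma cell list. The median centred signal of the plasma cell list ran from -0.21 to 0.86 in PCL, from -0.86 to 0.43 in MCL and from -1.07 to -0.02 in BL, so the tumours labelled PCL overlapped both MCL and BL in these markers.

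Myc encodes a transcription factor that drives cell growth and division, and its locus is a frequent target of translocation and gain in B cell tumours. An extra copy of a chromosome tends to raise the RNA of most of its genes together by a modest ratio. Pvt1, a long noncoding RNA gene that lies next to Myc, is often amplified or rearranged together with it. The question put to these probes was whether the chromosome that carries the endogenous Myc gene stands higher in some tumours. The probe of Myc itself, which could bind RNA of the transgene as well as of the endogenous gene, was left out by the rule.

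The sequences below belong to the probes on which the results for single members turn, as the array files give them, written from 5′ to 3′ with places on mouse build mm9. The first set of 4 is shown because a run of GAA, in capitals, is what these probes have in common, and their signals moved together.
A_55_P2068247: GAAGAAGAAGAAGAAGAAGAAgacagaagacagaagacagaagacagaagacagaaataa
A_55_P2035038: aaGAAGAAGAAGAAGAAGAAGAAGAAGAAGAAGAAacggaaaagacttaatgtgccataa
A_55_P2183518: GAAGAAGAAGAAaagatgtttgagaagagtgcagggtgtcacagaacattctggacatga
TC1636493: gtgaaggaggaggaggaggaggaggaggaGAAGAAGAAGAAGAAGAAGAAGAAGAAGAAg
They are placed at chr15:13245838-13245897, chr15:54645406-54645465 and chr15:59584116-59584175 on the minus strand and at chr15:61166187-61166343 on the plus strand. None of the 4 has a gene symbol in the annotation used.

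Both probes of Pvt1, named by their identifiers, are shown because they read the noncoding neighbour of Myc. Capitals mark AATAAA, the polyadenylation signal hexamer.
A_55_P2051254: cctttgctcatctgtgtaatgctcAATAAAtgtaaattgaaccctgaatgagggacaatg
A_55_P2155654: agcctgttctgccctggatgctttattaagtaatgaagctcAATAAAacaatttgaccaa
They lie on the plus strand at chr15:62081020-62081079 and chr15:62082471-62082530. AATAAA was found on the printed strand in 103 of the 731 members (14.1%) and in 2674 of 18454 probes of the other chromosomes that met the same detection rule. On either strand these were 135 members (18.5%) and 3326 probes.

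The last pair is shown for the stability of its calls. In each of 20 alternative settings these probes were higher in MCL than in both other types at a limma adjusted p under 0.05. In the second of them capitals mark TTTAATCCCAGC, letters found in the short interspersed B1 repeat of the mouse genome.
TC1709970: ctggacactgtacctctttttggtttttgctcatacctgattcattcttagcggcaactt
LOC654469: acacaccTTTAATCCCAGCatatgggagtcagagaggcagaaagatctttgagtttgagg
The probe of TC1709970, a transcript cluster without a gene symbol, lies at chr15:7844408-7844467 on the plus strand. The probe of LOC654469, a locus name of the array design, lies at chr15:78846351-78846410 on the minus strand. TTTAATCCCAGC was found on the printed strand in 1 member and in 4 probes of the other chromosomes, and on either strand in 2 members (0.274%) and 7 of those probes (0.0379%).

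Chromosome 15 stood higher in 2 of the 3 mantle cell lymphomas, by less than 0.2 log2 units, and lay near or below the other chromosomes elsewhere. Each probe was centred on its mean over the 11 arrays, and the shift of a tumour is the median over the members minus the median over the 18454 probes of the other chromosomes. The shift was 0.146 in MCL1, 0.038 in MCL2 and 0.166 in MCL3. It was -0.083 in PCL1, -0.004 in PCL2, -0.007 in PCL3 and -0.019 in PCL4. It was -0.094 in BL1, -0.031 in BL2, 0.012 in BL3 and -0.097 in BL4. MCL1 and MCL3 were the highest of the 11 tumours, and the range of MCL did not overlap those of PCL and BL. The means were 0.117 ± 0.069 (SD, n = 3) for MCL, -0.028 ± 0.037 (SD, n = 4) for PCL and -0.052 ± 0.053 (SD, n = 4) for BL. These values are a description, since the members were chosen with results known. Before the other chromosomes were subtracted, the member medians were -0.061, -0.032, 0.050 and -0.034 in PCL1 to PCL4. They were 0.090, 0.139 and 0.148 in MCL1 to MCL3, and -0.132, -0.038, -0.012 and -0.127 in BL1 to BL4. MCL2 was as high as the other mantle cell tumours on this raw scale, but its other chromosomes were raised by 0.102, and its shift was the smallest of the 3.

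The shift is a median, so a positive shift places most members above the other chromosomes by construction. The shares above that level therefore restate the shift and do not test how evenly it was spread. In MCL3 70.2% of the members lay above the median of the other chromosomes, in MCL1 63.6% and in MCL2 53.4%. The lowest shares were 39.1% in PCL1 and 40.1% in BL4. A member had its highest value of the 11 tumours in MCL1 for 17.1% of members, against 10.1% of the other chromosomes' probes. For MCL3 these shares were 15.7% and 6.58%, and for MCL2 17.9% and 16%. At the low end, PCL1 was the lowest tumour for 14.1% of the members and 6.83% of the other probes, and BL1 for 17.2% and 14.6%.

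Larger shifts than those of chromosome 15 were found on other chromosomes, most of them in tumours other than MCL1 and MCL3. An extra chromosome copy in every cell, 3 in place of 2, would raise RNA by 0.585 log2 units if RNA followed copy number in proportion. Each probe was centred on its mean over the 11 tumours, so a gain in some of them would show as less than this. Copy number was not measured. None of the 11 shifts of chromosome 15 passed 0.2 in either direction, whereas 24 of all 220 medians of a chromosome in a tumour did, on 11 chromosomes. Medians of that size reached -0.578 for chromosome 10 in BL1, -0.527 for chromosome 13 in BL2 and 0.491 for chromosome 6 in BL1. Within a tumour, chromosome 15 was the second highest of 20 chromosomes in MCL3, after chromosome 14 (0.342), and the third highest in MCL1, after chromosomes 12 (0.374) and 7 (0.149). Its range over the 11 tumours was 0.263, the 14th widest of 20, while that of chromosome 6 was 0.974. Because each probe was centred over the tumours and no normal tissue was analysed here, a gain shared by all 11 tumours would leave no trace in these values.

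**Figure D1:**
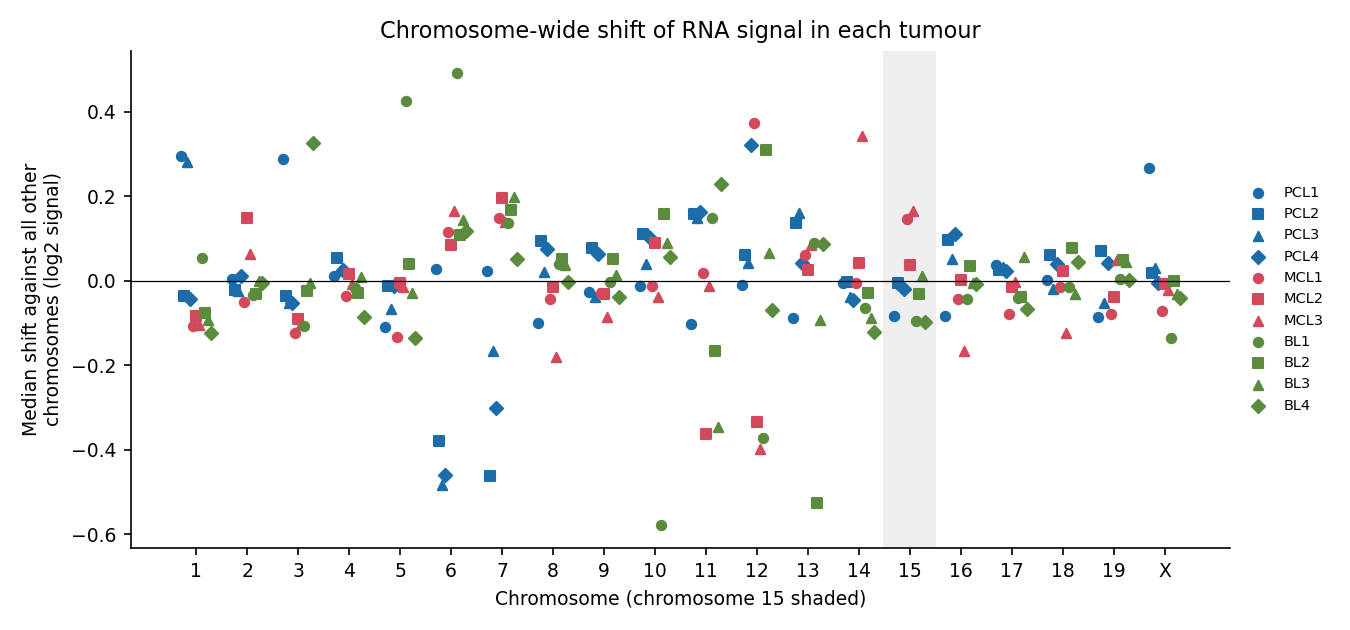
Each point is 1 tumour's median log2 signal over the probes of a chromosome, centred per probe and relative to all other chromosomes, with colours for lymphoma types and marker shapes for replicates. On chromosome 15, shaded, MCL3 (0.166) and MCL1 (0.146) are highest and no point passes 0.2, while chromosomes such as 6 and 10 have points beyond 0.4.

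In MCL1 the members beyond Myc stood higher than those before it, while in MCL3 both sides were raised. The split at Myc was chosen after the values were seen and no other split point was tried, so the place of a change is not located by it. Of the members, 202 lie before the Myc probe, on the side of the centromere, and 529 beyond it. In MCL1 the shift was -0.030 before Myc and 0.202 beyond it, with 47.5% and 69.8% of members above 0. In MCL3 it was 0.118 before and 0.182 beyond, and 70.3% and 70.1% of members were above 0. In MCL2 it was 0.052 and 0.032. BL4 had the opposite order to MCL1, with 0.034 before Myc and -0.130 beyond it. In the other BL and the PCL tumours both sides stayed between -0.10 and 0.04. Across 9 alternative settings the shift of MCL1 beyond Myc was 0.125 to 0.219 and that before Myc was -0.056 to 0.038. The members before Myc had a median probe GC content of 40.8% and those beyond it of 45%, against 43.3% on the other chromosomes. When the other chromosomes were weighted to the GC content of the members, no tumour's shift moved by more than the spread of its type. The shift of MCL2 was nevertheless 0.057 over the 510 members at or below the members' median GC content and -0.063 over the 221 above it. In the latter MCL2 was the lowest of all tumours, below every PCL and BL tumour. These ran from PCL1 (-0.060) and BL4 (-0.059) up to BL3 (0.004), BL2 (0.006) and PCL2 (0.026). The separation of MCL from the other types thus did not hold there. MCL1 and MCL3 were at 0.168 and 0.160 in those 221 members, above all other tumours. BL1 was at -0.131 in the members of lower GC content and -0.007 in those of higher.

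Along the chromosome in windows of 10 Mb, the window that holds Myc was among the highest of MCL1 and MCL3. Windows with at least 20 members were described, which were 9 of 11. In the window from 60 to 70 Mb, with 26 members, the median was 0.302 in MCL1, 0.099 in MCL2 and 0.347 in MCL3. It was -0.017 in PCL1, -0.198 in PCL2, -0.105 in PCL3 and -0.247 in PCL4, and -0.096, -0.091, 0.046 and 0.066 in BL1 to BL4. All 3 mantle cell tumours were thus above all 8 others in this window, and PCL2 and PCL4 were lowest. From 20 to 30 Mb, a window of only 17 members, the 3 mantle cell tumours were also above all others. The highest other value there was 0.038 in PCL4. Of the 26 members of Myc's window, 19 lay above 0 in MCL3, 16 in MCL1 and 7 in PCL4. MCL1 and MCL3 were the highest tumours for 5 of the 26. Without the GAA probe of this window, its medians were 0.285 in MCL1 and 0.338 in MCL3, and for MCL1 the last window, from 100 to 110 Mb, was then as high, at 0.285. With members of 1 name averaged, which left 21 names, they were 0.326 and 0.338.

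Beyond Myc MCL1 stayed raised to the end of the chromosome, at 0.175, 0.192, 0.206 and 0.290 in the 4 following windows. Before Myc its medians were -0.131 from 0 to 10 Mb, 0.136 from 10 to 20 Mb, 0.166 from 20 to 30 Mb with only 17 members, -0.095 from 30 to 40 Mb and -0.083 from 50 to 60 Mb. MCL3 was above 0 in all 9 windows, from 0.084 in the window before Myc to 0.347 in Myc's own. MCL2 was also above 0 in all 9, but by no more than 0.099. BL4 was between -0.152 and -0.121 in the 4 windows beyond 70 Mb and above 0 in the 5 of these 9 before. In the windows of fewer than 20 members, from 20 to 30 and from 40 to 50 Mb, MCL2 was at 0.291 and -0.052. There MCL3 was at 0.313 and -0.060, and BL4 at -0.153 and -0.089. MCL1 was at -0.023 from 40 to 50 Mb. Of 99 window medians of chromosome 15, 8 passed 0.2 in either direction (8.08%), against 19.4% of 2563 medians of the 233 windows of other chromosomes with as many probes. Of all 242 such windows in a tumour, Myc's window was the 7th highest in MCL3, the 11th in MCL1 and the 51st in MCL2. It ranked 213th and 215th in PCL2 and PCL4.

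**Figure D2:**
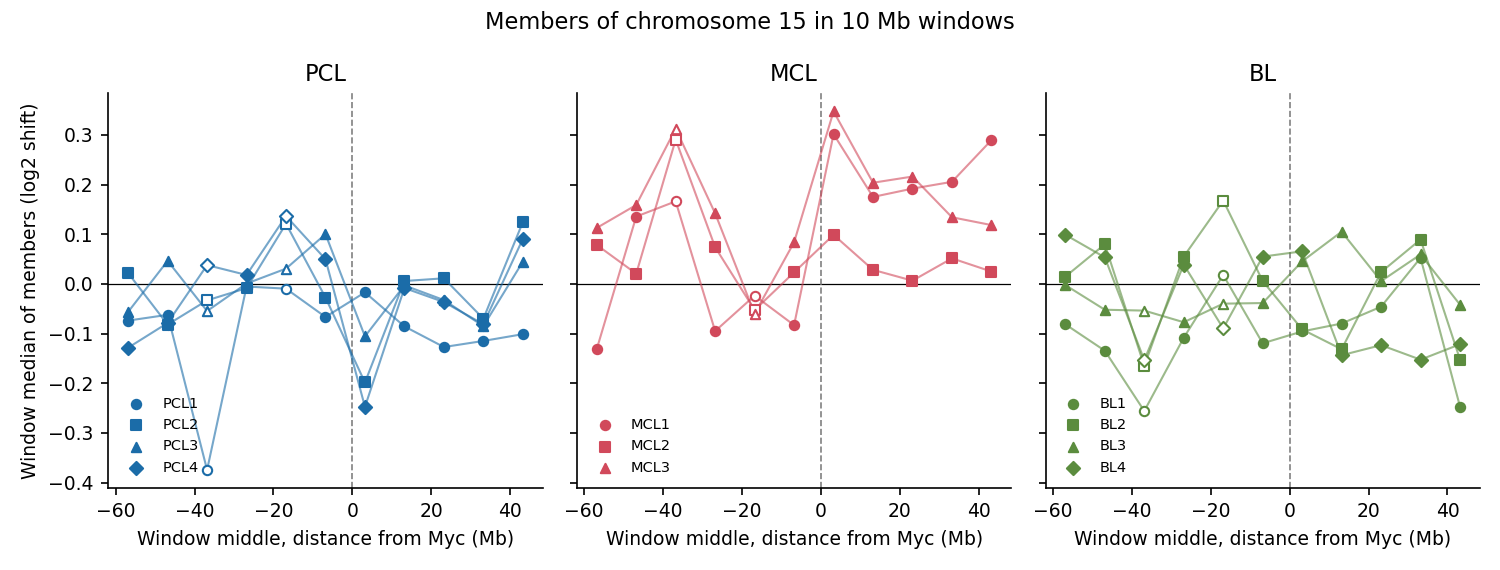
Median log2 shift of the members in each 10 Mb window against the distance of the window's middle from Myc in Mb, 1 panel per lymphoma type and 1 line per tumour, with open markers for the 2 windows of fewer than 20 members. MCL1 lies at 0.175 to 0.302 from Myc's window onward, MCL3 peaks at 0.347 in that window, and PCL2 and PCL4 are at -0.198 and -0.247 there.

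The members that lie closest beyond Myc were raised in MCL1 and MCL3 together, but none of these differences between types passed the test. Pvt1 read 1.76, 1.45 and 1.97 in MCL1 to MCL3 on the probe A_55_P2051254, against 1.27, 0.37, 0.48 and 0.47 in PCL1 to PCL4 and 1.30, 1.06, 1.04 and 0.04 in BL1 to BL4. All 3 MCL tumours were above all PCL and BL tumours, and BL4 was lowest. The difference PCL minus MCL was -1.08 (SE 0.33, limma adjusted p = 0.083) and MCL minus BL was 0.87 (SE 0.33, limma adjusted p = 0.204). The second Pvt1 probe, A_55_P2155654, read 0.16, -0.31 and 0.06 in MCL, -0.17, -0.63, -0.49 and -0.60 in PCL and -0.05, -0.51, -0.29 and -0.93 in BL. On it MCL2 overlapped both other types, and the differences were -0.44 (SE 0.24, limma adjusted p = 0.292) and 0.41 (SE 0.24, limma adjusted p = 0.438). The probes of Pvt1 thus share MCL1 and MCL3 at the top and BL4 at the bottom, and differ on MCL2.

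Between Myc and Pvt1 lie 3 members. Macroh2a3, a transcribed pseudogene of the macro-H2A histone family, had shifts of 0.66 in MCL1 and 1.30 in MCL3 but -0.79 in MCL2. Its shifts were 0.04 to 0.36 in PCL and -0.68 to -0.27 in BL. A_55_P2179706, an unnamed probe next to it, had shifts of 0.74, -0.62 and 1.33 in MCL1 to MCL3 and between -0.34 and 0.00 in the 8 other tumours. A_55_P2164694, the member closest to Myc at 0.118 Mb, had 0.55, 0.11 and 0.79 in MCL1 to MCL3. Its highest value among the other tumours was 0.11. MCL1 and MCL3 were therefore the highest tumours for all 3, and MCL2 was the lowest tumour for A_55_P2179706 and Macroh2a3. Both of these are dim, with mean signals under -3 in every type. Farther out, at 1.50 and 1.64 Mb, NAP027456-1 and A_55_P2113912 had shifts of -0.07 and -0.58 in MCL1 and of -0.08 and -0.11 in MCL3. Gsdmc, which encodes a pore-forming gasdermin, had shifts of 0.69, 0.50 and 0.34 in MCL1 to MCL3, and of 0.34 in BL1.

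On the near side, the closest named gene measured was Trib1, a pseudokinase gene that lies 2.33 Mb before Myc. Both Trib1 probes were lowest in MCL1, with shifts of -1.50 and -1.60, and BL1 was second lowest at -0.61 and -0.77. MCL3 lay at -0.08 and -0.19, and MCL2 at 0.44 on both. The unnamed ENSMUST00000118228 just before it was also low in MCL1, at -1.27, and in BL1, at -1.44. The other members on this side were NAP092996-001, AK041614 and A_55_P2008691, whose shifts stayed between -0.42 and 0.49 in all tumours, and the GAA probes A_55_P2183518 and TC1636493, described below.

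**Figure D3:**
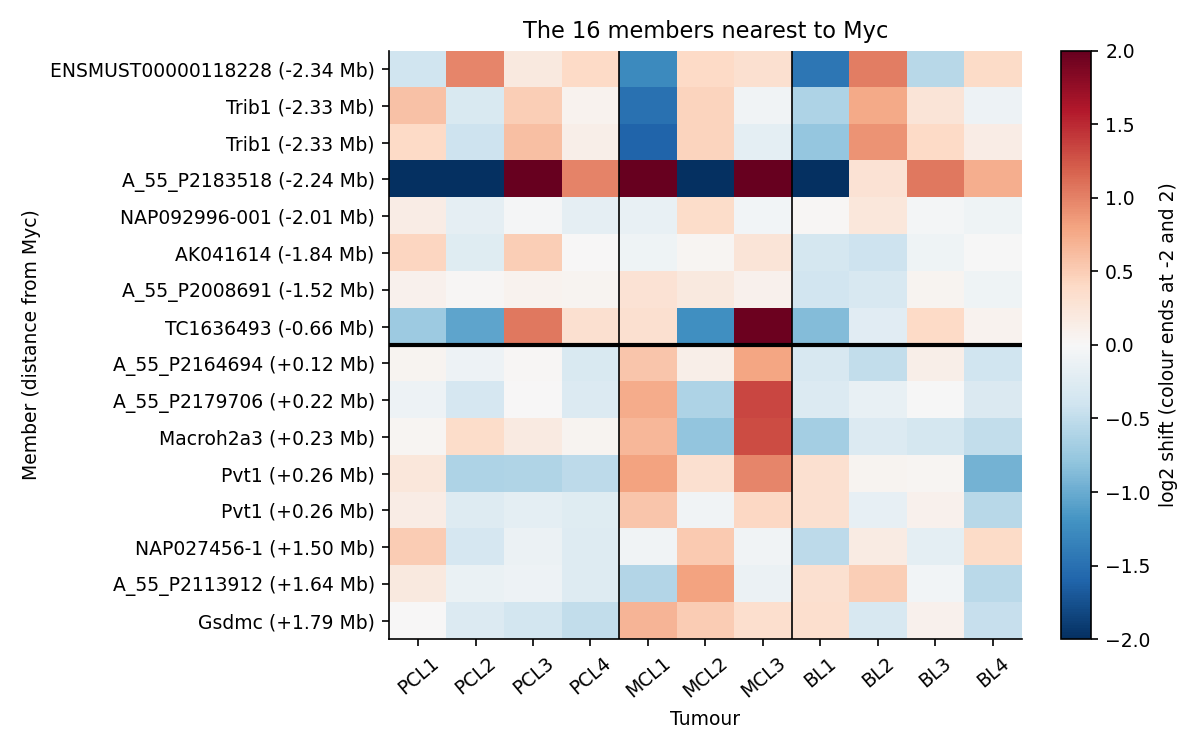
Log2 shift of the 8 members nearest to Myc on each side (rows, with distance from Myc in Mb, the line marking Myc) in the 11 tumours (columns, with lines between lymphoma types), red above and blue below the other chromosomes, the colour ending at -2 and 2. The 5 rows just beyond Myc are red in MCL1 and MCL3, the Trib1 rows are blue in MCL1, and the rows of A_55_P2183518 and TC1636493 vary between tumours of every type.

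Among 33 probes of 25 genes of a list of Myc neighbours on both sides, from Dscc1 to Zfat, 1 was called lower in PCL than in MCL, 1 lower in PCL than in BL, and 0 were called between MCL and BL, where 3 had an unadjusted limma p under 0.05 (9.09%, beside 16.8% of all probes tested). Called means a limma adjusted p under 0.05, adjusted over all 25288 probes that were well above background on at least 3 arrays. The 1 gene was St3gal1 in both cases. Over all probes tested, 3.85% were called lower in PCL than in MCL and 0.194% lower in PCL than in BL. The median difference of the list was -0.08 for PCL minus MCL and 0.09 for MCL minus BL, and 19 of the 33 probes were higher in MCL than in BL. The list medians were -0.11 in MCL1, -0.07 in MCL2 and 0.06 in MCL3, so the median of the list was below 0 in MCL1. The list spans both sides of Myc and includes Trib1. Gsdmc3, a member of Myc's window not on the list, was called higher in MCL than in PCL and in BL. Its shifts were 0.70, 0.73 and 0.36 in MCL1 to MCL3, -0.13 to 0.08 in PCL and -0.48 to -0.27 in BL. It was called in 5 of 19 alternative settings against PCL and in 16 of 19 against BL.

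Mantle cell against plasma cell lymphoma gave 35 called members, 31 of them lower in PCL and 4 higher. That is 4.79% of the members, beside 5.68% of all probes tested and 5.2% of the probes of other chromosomes that met the members' detection rule. Lower in PCL were 4.24% of members, 3.85% of all probes tested and 3.74% of those other probes, and higher in PCL were 0.547%, 1.83% and 1.45%. The share of called members was thus near the background. Of the 35, 28 lie beyond Myc, as do 529 of all 731 members. PCL and MCL values were separate for all 35, and for 162 of the 731 members in all (22.2%), beside 22.3% of all probes tested and 22.6% of the detected probes of other chromosomes. The median difference PCL minus MCL was -0.13 over the members and 0.02 over those other probes, and 36.3% of the members and 51.7% of the other probes were higher in PCL. With the normexp background adjustment, 5 members were called, all lower in PCL. Leaving out PCL1 gave 57 calls, PCL2 or PCL4 gave 8 each, and PCL3 gave 11. Leaving out MCL1, MCL2 or MCL3 gave 17, 13 and 14.

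St3gal1, which encodes a sialyltransferase that caps O-linked sugar chains, was called lower in the plasma cell lymphomas by the dimmer of its probes. Its probe A_51_P301804, at chr15:66937894-66937953, read 0.46, 0.16, 0.43 and 0.59 in PCL1 to PCL4. It read 1.38, 1.65 and 1.61 in MCL1 to MCL3, and 1.29, 1.57, 1.53 and 1.64 in BL1 to BL4. PCL did not overlap either other type, and MCL and BL overlapped each other. The differences were -1.14 for PCL minus MCL (SE 0.17, limma adjusted p = 0.00787) and -1.10 for PCL minus BL (SE 0.16, limma adjusted p = 0.022). The brighter St3gal1 probe, A_65_P03728, was not called and gave -0.66 and -0.90, with limma adjusted p-values of 0.374 and 0.273. Its PCL values were 2.57, 1.61, 1.53 and 1.79, so PCL1 overlapped the MCL and BL tumours on it.

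Tnfrsf13c encodes the receptor for the B cell survival factor BAFF, which mature B cells need and plasma cells largely lose. It read 2.26, 1.16, 1.42 and 0.99 in PCL1 to PCL4 on the probe A_55_P2117614, at chr15:82052203-82052262. It read 3.73, 3.54 and 3.1 in MCL and 2.44, 3.50, 3.30 and 2.07 in BL. PCL lay below MCL without overlap (PCL minus MCL -2.003 log2 units, SE 0.41, limma adjusted p = 0.0252), while PCL1 overlapped BL. Its second probe gave a difference of -1.92 with a limma adjusted p of 0.054.

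Ly6d encodes a membrane-anchored protein that marks lymphoid progenitors committed to the B lineage. It read 5.24, 4.54, 4.58 and 4.65 in PCL1 to PCL4, 5.73, 5.89 and 6.45 in MCL and 6.11, 6.40, 6.06 and 6.18 in BL. PCL did not overlap the other types, and PCL1 was the PCL tumour closest to them. The differences were -1.27 for PCL minus MCL (SE 0.24, limma adjusted p = 0.0186) and -1.43 for PCL minus BL (SE 0.22, limma adjusted p = 0.0294). The probe lies at chr15:74592551-74592610 on the minus strand.

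The called members higher in PCL were Selenop, Gpd1, Pde1b and Cox5b. Selenop, the gene of a secreted selenium transport protein, read 2.00, 4.83, 4.44 and 4.65 in PCL1 to PCL4, -0.61, 0.72 and 1.53 in MCL and 2.48, 0.59, 1.22 and 0.74 in BL. PCL2 to PCL4 stood far above all other tumours, and PCL1 lay below BL1. The difference PCL minus MCL was 3.43 (SE 0.77, limma adjusted p = 0.0331). A list of 16 macrophage and monocyte genes had median centred signals of -0.88, 2.76, 1.30 and 1.72 in PCL1 to PCL4. They were 0.13, -1.82 and -1.33 in MCL and -0.62 to 0.02 in BL. From 11 to 16 of the 16 genes were well above background in a tumour. The part of these cells in the Selenop result was not tested, and in tumour tissue fewer cells of a type and less RNA per cell cannot be told apart.

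Gpd1, the gene of cytosolic glycerol-3-phosphate dehydrogenase, was dim. It read -2.84, -2.84, -2.31 and -3.14 in PCL and -5.14, -5.13 and -4.06 in MCL, a difference of 2.00 (SE 0.40, limma adjusted p = 0.0242). Pde1b, the gene of a calmodulin-dependent phosphodiesterase, read 2.62, 1.88, 2.10 and 1.81 in PCL, 1.14, 0.76 and 0.72 in MCL and 1.73, 1.59, 2.02 and 1.71 in BL. MCL was the low type for Pde1b, and PCL and BL overlapped. Its difference PCL minus MCL was 1.23 (SE 0.23, limma adjusted p = 0.0186). The probe named Cox5b, the gene of a cytochrome c oxidase subunit that RefSeq places on chromosome 1, read 5.33, 5.25, 5.72 and 5.24 in PCL and 4.75, 4.52 and 4.62 in MCL. Its difference was 0.75 (SE 0.17, limma adjusted p = 0.0339), and its placement and its gene name disagree.

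The further members called lower in PCL than in MCL with the largest differences were TC1709970, LOC654469, Foxred2, Krt2, A_55_P2123234 and Ttc38. Their differences ran from -2.01 to -1.17, and the first pair is described with MCL and BL. Foxred2, a flavoprotein gene of the degradation of misfolded proteins, read -1.12, -1.43, -1.21 and -1.43 in PCL and -0.21, -0.11 and 0.70 in MCL (limma adjusted p = 0.0313). A_55_P2123234, an unnamed probe, read 0.52, 0.83, 0.73 and 1.19 in PCL, 2.10, 1.87 and 2.18 in MCL and 0.65, 0.65, 1.21 and 0.94 in BL. MCL stood above both others without overlap, by 1.23 over PCL (limma adjusted p = 0.015) and by 1.18 over BL (limma adjusted p = 0.0132). Krt2, a keratin gene not known for a role in lymphoid cells, read -1.46, -1.45 and -1.81 in MCL and between -3.22 and -2.53 in all PCL and BL tumours. Ttc38 read from -3.70 to -3.33 in PCL and from -2.68 to -2.11 in MCL.

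Plasma cell against Burkitt lymphoma gave 4 called members, 2 higher in PCL and 2 lower, or 0.547% of members beside 0.597% of all probes tested and 0.466% of the detected probes of other chromosomes. In each direction this was 0.274% of members, beside 0.403% of all probes tested for higher and 0.194% for lower. The lower ones were St3gal1 and Ly6d, given above. The higher ones were Rnd1, the gene of a small GTPase that loosens the actin skeleton, and Tst, the gene of thiosulfate sulfurtransferase. Rnd1 read -3.69, -2.34, -2.999 and -2.72 in PCL and -5.43, -5.68, -4.62 and -4.81 in BL. Tst read -2.73, -1.47, -2.43 and -1.66 in PCL and -4.21, -3.58, -3.50 and -4.02 in BL. The differences were 2.20 (SE 0.39, limma adjusted p = 0.0446) for Rnd1 and 1.75 (SE 0.32, limma adjusted p = 0.0456) for Tst. Both are dim. The split moved with the scaling, to 0 higher and 2 lower with quantile normalization and to 0 higher and 3 lower in the authors' deposited table. The count was 27 without PCL1, and leaving out any 1 of the other 10 tumours gave 0 to 3 calls. Over the members the median difference PCL minus BL was 0.06, the same as over the other chromosomes at 0.06.

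Mantle cell against Burkitt lymphoma gave 32 called members, all of them higher in MCL. That is 4.38% of members, beside 4.95% of all probes tested, split into 4.8% higher in MCL and 0.15% lower. Of the detected probes of other chromosomes 4.83% were called, and 4.66% were higher in MCL. The called share and its direction were thus near those of the whole array. The median difference MCL minus BL was 0.18 over the members and -0.02 over the other chromosomes, and 70.7% and 48.0% of them were higher in MCL. Most of the called members were dim, with 28 of the 32 below the members' median signal and 11 among their dimmest 10%. With the normexp background adjustment the count was 2, and among members brighter than the median of all probes tested it was 8. It was 14 without MCL1, 17 without MCL2 and 17 without BL2. The calls against PCL and against BL share 15 members, and both comparisons use the same 3 MCL tumours.

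TC1709970 had the largest difference among the members called here. It read 1.15, 0.83 and 0.98 in MCL1 to MCL3, -1.18, -0.68, -0.74 and -1.48 in PCL and -1.49, -1.90, -1.13 and -1.34 in BL. MCL stood apart from both other types, by 2.01 over PCL (SE 0.25, limma adjusted p = 0.00379) and by 2.45 over BL (SE 0.25, limma adjusted p = 0.00109). LOC654469 read 2.23, 2.05 and 2.59 in MCL, 0.67, 0.43, 1.02 and 0.68 in PCL and 0.56, 0.49, 0.77 and 0.95 in BL. MCL was again higher without overlap, by 1.59 over PCL (SE 0.21, limma adjusted p = 0.00493) and by 1.60 over BL (SE 0.21, limma adjusted p = 0.00377). Both were called in all 20 alternative settings of both comparisons. Of the 4 probes of other chromosomes that hold the TTTAATCCCAGC of LOC654469, the median shifts were -0.06, 0.04 and 0.00 in MCL1 to MCL3, so those probes were not raised with it.

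**Figure D4:**
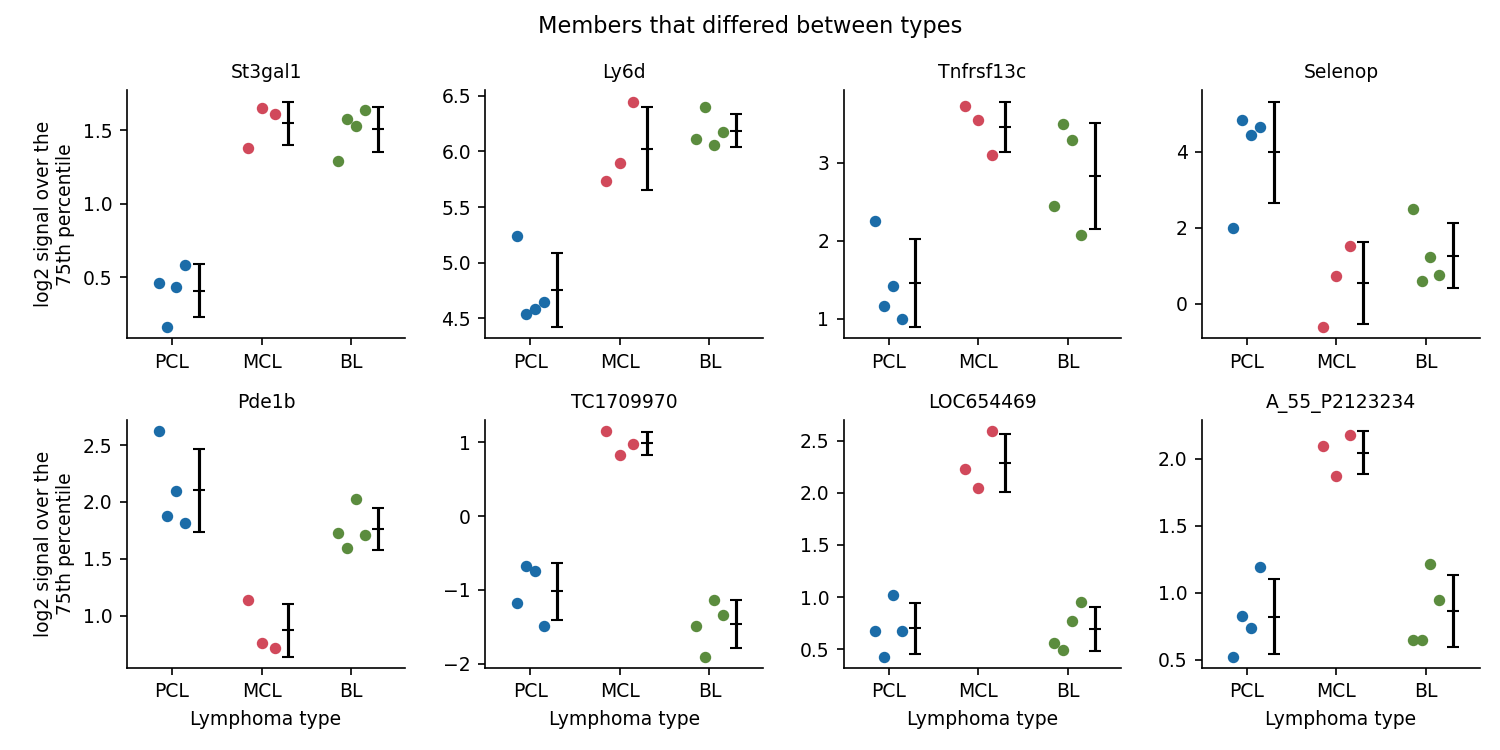
Log2 signal over the array's 75th percentile of 8 members called in at least 1 comparison, 1 panel per member and 1 point per tumour, with the mean and SD of each type as black bars, on axes that differ between panels and do not start at 0. St3gal1, on its dimmer probe A_51_P301804, and Ly6d are lower in PCL than in both other types. TC1709970, LOC654469 and A_55_P2123234 are higher in all 3 MCL tumours than in any PCL or BL tumour.

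The other members named by the size of their difference between MCL and BL were Rbfox2, Prlr, Krt2, D430034N21, Trio and Foxred2. Rbfox2, a splicing regulator gene, read -3.87, -3.20 and -3.56 in MCL and -5.58, -4.77, -5.17 and -5.06 in BL, a difference of 1.60 (limma adjusted p = 0.0131). Prlr, the prolactin receptor gene, read -3.26, -3.33 and -3.85 in MCL and from -5.11 to -4.67 in BL, a difference of 1.40 (limma adjusted p = 0.0221). In both the types did not overlap, and the signal was near the lower end of the members. Trio read 0.06, 0.02 and -0.82 in MCL, -1.60, -1.52, -1.05 and -1.21 in PCL and -1.65, -1.80, -1.29 and -1.37 in BL. MCL3 was closest to the other types, and the difference MCL minus BL was 1.28 (SE 0.26, limma adjusted p = 0.0201). D430034N21 was lowest in BL, at -5.41 to -4.80 against -4.07 to -3.52 in MCL, and Krt2 was given above.

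A test of any difference among the 3 types called 43 members, or 5.88% beside 6.98% of all probes tested and 6.49% of the detected probes of other chromosomes. By function, of 19 measured genes of blood cell receptors and signalling with 25 probes, 2 were called lower in PCL than in MCL, Tnfrsf13c and Ly6d, and 1 lower in PCL than in BL, Ly6d. Over all probes tested, 3.85% and 0.194% were called lower in PCL in these comparisons. An unadjusted limma p under 0.05 was held by 20% of the list's probes for PCL minus MCL. For PCL minus BL and MCL minus BL these were 16% and 8%. Ribosome and translation genes, 16 of them with 23 probes, had 0 calls in all 3 comparisons, while 1, 6 and 2 of the probes had an unadjusted limma p under 0.05 for PCL minus MCL, PCL minus BL and MCL minus BL. Over all probes tested these shares were 23.6%, 17.3% and 16.8%, and in the ribosome list 4.35%, 26.1% and 8.70%. The ribosome list's median differences were 0.09 for PCL minus MCL, 0.27 for PCL minus BL and 0.14 for MCL minus BL. Of its 23 probes, 22 were higher in PCL than in BL, as were 58.1% of all probes tested. In MCL 21 were higher than in BL, beside 52.5%, and 17 were higher in PCL than in MCL, beside 49.4%. Of 15 replication, repair and mitosis genes, Cenpm, the gene of a centromere protein, was called lower in PCL than in MCL. For PCL minus MCL 22.2% of their probes had an unadjusted limma p under 0.05. In the other comparisons 0 were called, with an unadjusted limma p under 0.05 for 4 of their 18 probes for PCL minus BL and 1 for MCL minus BL. Cenpm read -1.51, -1.55, -1.22 and -1.48 in PCL and -0.96, -0.38 and -0.25 in MCL (limma adjusted p = 0.0368). Of 16 transcription and chromatin genes, Kmt2d, the gene of a histone H3 methyltransferase, was called lower in PCL than in MCL by 1 of its 2 probes. That probe gave -1.15 (limma adjusted p = 0.0176), and the other gave -0.13 (limma adjusted p = 0.745). In this list 17.4%, 17.4% and 0% of the probes had an unadjusted limma p under 0.05 for the 3 comparisons, in the order above. Of 13 metabolism and stress genes with 15 probes, 0 were called in the 3 comparisons, and 1 probe had an unadjusted limma p under 0.05, for PCL minus MCL.

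Among the members that varied most between tumours were Ly6 genes, surface proteins of blood cells. By the SD over the 11 tumours the order was Ly6a (2.67), the GAA probe A_55_P2183518 (2.54), Ly6c1 (2.32), Prickle1 (2.31), Cntn1 (2.25) and Krt18 (2.20). Ly6a read 5.02 in MCL1 and -4.65 in MCL2, with -1.98 in MCL3. It read 1.18, -0.64, -0.81 and -0.16 in PCL and -0.43, -4.73, -0.45 and -1.80 in BL. The same tumour led for Ly6c1, at 6.07 in MCL1 and -2.16 in MCL2 on the brighter probe, with BL1 second at 3.49. Csf2rb, the common receptor chain of several growth factors of blood cells, read 4.30 in MCL1, -1.26 in MCL2 and 2.21 in MCL3 on its brighter probe. MCL1 thus had the highest signal for all 3 genes. T cell markers, a list of 8 genes with 6 to 8 of them well above background in a tumour, had a median centred signal of 1.06 in MCL1. The list lay between -0.79 and 0.59 in the other tumours. The part of T cells in these values was not tested. The median SD over the 11 tumours was 0.39 for a member and 0.43 for a probe of the other chromosomes.

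The 4 GAA probes printed above varied with the tumour and not with the place on the chromosome. A run of 4 GAA units, GAAGAAGAAGAA, is held on the printed strand by 5 members (0.684%), by 47 of the 18454 detected probes of other chromosomes (0.255%) and by 0.152% of all probes used. On either strand the shares are 0.684%, 0.260% and 0.163%. The median shifts of the 5 members were -1.77, -2.60, 1.76 and 0.87 in PCL1 to PCL4, 1.05, -2.25 and 2.88 in MCL1 to MCL3 and -1.51, 0.17, 0.81 and 0.64 in BL1 to BL4. Those of the 47 probes elsewhere were -1.84, -2.72, 1.78 and 0.85 in PCL, 1.21, -2.33 and 3.21 in MCL and -1.66, 0.15, 0.79 and 0.54 in BL. The same tumours were high and low in both sets, MCL3 highest and PCL2 lowest, and no lymphoma type stood apart.

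Member by member, MCL3 had the highest signal in 4 of the 5, all but Mettl7a2, a methyltransferase-like gene whose shifts were small and which was highest in MCL2. PCL2 had the lowest signal in 4 of the 5, all but TC1636493, which was lowest in MCL2. A_55_P2183518, which lies 2.24 Mb before Myc, had the widest range, from -3.88 in PCL2 to 4.38 in MCL3. TC1636493, 0.66 Mb before Myc and the closest member on that side, ran from -1.22 in MCL2 to 1.96 in MCL3. As a description over 11 tumours, the correlation of the 5 members with the median of the 47 had a median of 0.994 and a lowest value of 0.298. For the other 726 members it had a median of 0.104 and a highest value of 0.740. The points share arrays and the repeat itself, and the RNA that bound these probes was not identified here. Without the 5 members the chromosome's shift was 0.145 in MCL1, 0.040 in MCL2 and 0.162 in MCL3, each within 0.01 of the value with them.

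**Figure D5:**
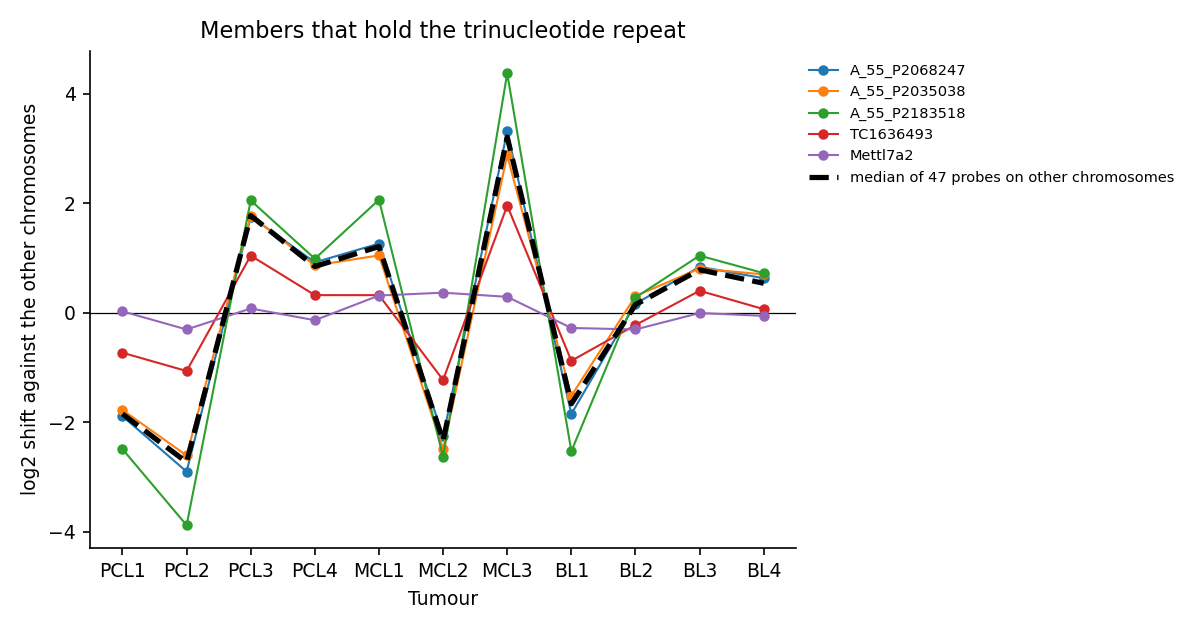
Log2 shift against the other chromosomes of the 5 members that hold GAAGAAGAAGAA (coloured lines) in the 11 tumours, with the median of 47 probes of other chromosomes that hold it (dashed black line). The lines of 4 members follow the dashed line, from -2.72 in PCL2 to 3.21 in MCL3, and the line of Mettl7a2 stays near 0.

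Promoters of the members' genes were searched for CACGTG, the palindromic E-box letters that Myc with its partner Max binds and that read the same on both strands, in the RefSeq promoter table of build GRCm38.p6. Of the 259 member genes found there, 29 held it (11.2%), against 12.0% of 9112 genes of the other chromosomes detected alike and 8.09% of all 27025 genes of the table. For genes before Myc it was 4 of 46, and for those beyond it 25 of 213. A match describes the letters in a window around the start site and not binding.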

How the data were processed

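RNA of 11 tumours was labelled with Cy3 from 0.2 micrograms each and hybridised to one-colour Agilent arrays, per the labels' protocols. The scanner files deposited by the authors hold intensity values extracted with Agilent Feature Extraction 10.7.3.1 and placed on mouse build mm9, per the file headers. Spatial and multiplicative detrending were on and a separate background correction was off, per the file headers. The software put substitute values in 21.5% to 29.2% of the spots of an array. The authors' value table is in log2 units, found from the data, and ranks spots exactly as the median spot signal does (Spearman correlation of 1). Its normalization was not given in the sources used here.

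Of 43020 non-control spots per array, outlier spots (121 to 164) were left out, spots of a probe were averaged, and 46 of 39429 probes that lost all spots on an array were dropped, so 39383 were used. Each array's 75th percentile (1067 to 1632 intensity units) was subtracted on the log2 scale. limma 3.58.1 in R 4.3.3 fitted type means to 25288 probes over all 11 arrays, with 8 residual and 2.08 prior degrees of freedom. Its p-values were adjusted by Benjamini-Hochberg over all of them. The fit was tested on simulated data. Shifts and windows were computed with pandas. The number of arrays limits the precision.

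Alternatives were normexp, quantile normalization, the authors' table, other percentiles, filters, centring and comparison probes, 1 probe per gene, array weights, array position and leaving out each tumour. Named members were, per comparison, the 8 higher and 8 lower called with the largest differences by the gene's brightest called probe. The 8 nearest to Myc on each side and members of the lists were named too. The GAA and LOC654469 motifs, the most variable members, Gsdmc3 and the split at Myc were chosen after their values were seen. The members and lists were chosen with earlier results of these data known.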

Additional observations from a re-analysis of the deposited data

Results flagged for a closer look

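In 7 of 94 groups of 4 tumours examined (7.45%), 1 tumour lay apart from the other 3 by a gap of more than 4 in 5 of the group's range, where chance alone passes about 1 group in 20. The gap as a share of the range is given with each. In the window from 10 to 20 Mb, PCL3 (0.047) lay above the other PCL tumours, of which the nearest was -0.062 (share 0.847). In the window from 70 to 80 Mb, PCL1 (-0.085) lay below the others, of which the nearest was -0.008 (share 0.846). In the window from 90 to 100 Mb, BL4 (-0.152) lay below the other BL tumours, of which the nearest was 0.053 (share 0.847).

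PCL1 was also the tumour apart for 3 members. Its Selenop signal was 2.00, against 4.44 in the nearest other PCL tumour (share 0.863). Its Ly6d signal was 5.24, against 4.65 (share 0.848), and its Pvt1 signal on the probe A_55_P2051254 was 1.27, against 0.48 (share 0.878). For Prlr, PCL3 was apart, at -3.77 against -4.76 (share 0.874).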

How the results depend on the processing

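The counts of called members moved by more than 1.5 times with several settings, and the cause was not tested. For PCL minus MCL (35) they were 5 with normexp, 136 with array weights and 8 to 57 with 1 tumour left out. For PCL minus BL (4) they were 0 with normexp, 2 with quantile normalization, 6 among probes detected on all 11 arrays, 2 with 1 probe per gene, 67 with array weights, 2 among members above the median signal and 0 to 27 with 1 tumour left out. For MCL minus BL (32) they were 2 with normexp, 18 with quantile normalization, 18 in the authors' table, 8 among members above the median signal and 14 to 35 with 1 tumour left out. For any difference (43) they were 3 with normexp, 28 in the authors' table, 153 with array weights, 17 above the median signal and 12 to 70 with 1 tumour left out. Of the called members, 3 of 35, 0 of 4 and 2 of 32 were called in every setting that held their probe. St3gal1, among the 3, was held by 19 of the 20 settings.

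Array positions are shared only as numbers. Deviations of same-position tumours correlated at -0.032 to 0.238. With position as a replicate block the counts were 7, 0, 8 and 3.

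The shift of chromosome 15 kept its sign in MCL1, MCL2, MCL3, PCL1, BL1 and BL4 under all settings, except that MCL2 turned in the members of higher GC content. It moved beyond the spread of its type with normexp in PCL3 (-0.074) and BL4 (-0.161), and with centring on the median in PCL1 (-0.025) and MCL1 (0.066). With 1 tumour left out it was 0.131 to 0.165 in MCL1, 0.015 to 0.054 in MCL2, 0.156 to 0.183 in MCL3, -0.102 to -0.071 in PCL1, -0.014 to 0.014 in PCL2, -0.020 to 0.002 in PCL3, -0.023 to 0.000 in PCL4, -0.107 to -0.084 in BL1, -0.045 to -0.010 in BL2, -0.008 to 0.029 in BL3 and -0.109 to -0.073 in BL4. The type means were then -0.040 to -0.015 in PCL, 0.101 to 0.166 in MCL and -0.076 to -0.039 in BL. Window medians beyond 0.2 (8.08%) were 4.04% in the authors' table, 13.1% with means, 4.55% with 20 Mb windows and 4.44% to 10.0% with 1 tumour left out. Centring on the median, the split at Myc under other settings and the matching on GC and signal were chosen after seeing the data. Dim members, close to background, limit the calls between MCL and BL.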
